A study of Mus musculus with 8 samples.

Results

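Interferon response and antigen presentation were described through 43 genes, taken from the count table by their symbols, out of 46040 genes listed there. They are genes known for these functions, and the rule that names them has no threshold on a measured value. The libraries were made from the left ventricles (LVs) of 8 male C57BL/6 mice aged 5 to 7 months, with 1 library per mouse. All mice received angiotensin II (angII, 0.1 mg/kg/h), a peptide hormone that raises blood pressure and leads to left ventricular hypertrophy (LVH), from subcutaneous pumps until day 14. In the VEGFR-1 TK-/- group (n = 4), the intracellular tyrosine kinase domain of VEGFR-1, a receptor of vascular endothelial growth factors encoded by Flt1, is lacking, and littermates served as the control group (n = 4). The LVs came from mice that survived the infusion, and no library of an untreated heart was used here.

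The sample labels contradict each other. In every library, the sample title gives the opposite genotype to that in the genotype tag and in the name of the library. The grouping used here follows the tags and library names, with groups called control-tagged and TK-/- tagged. A log2 fold change sets the TK-/- tagged against the control-tagged libraries, and the titles would turn every direction around. The labels describe depletion of ribosomal RNA where the methods of the study describe selection of poly-A RNA. The source is given as left ventricle, while cardiomyocytes appear in the names of the libraries.

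Interferons are cytokines released upon viral infection or tissue injury. Type I interferons act through a complex of the transcription factors Stat2, Irf9 and a partner STAT protein, which binds the interferon-stimulated response element (ISRE) and induces antiviral genes. Type II interferon, made by T and NK cells, acts through a different STAT complex at the gamma-activated site (GAS) and raises antigen presentation and the immunity-related GTPases. MHC class I molecules show peptides from inside the cell on most cell types, whereas MHC class II molecules are largely restricted to dendritic cells, macrophages and B cells.

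Between 11449137 and 16239670 reads per library were counted on genes. All 43 genes passed the filter, a CPM (read count scaled to the library total) of 1 or more in 2 or more libraries, and were tested among 13542 genes, with 17 to 8181 reads per gene and library. Flt1 was at 67.4, 68.4, 56.9 and 84.3 normalized CPM in the control-tagged libraries and at 144, 149, 170 and 168 in the TK-/- tagged libraries. The groups did not overlap, and the log2 fold change was 1.19 (SE 0.12, quasi-likelihood FDR = 0.00808 in edgeR). Since counts were summed over the whole gene, they do not show the removed domain and do not decide between the labels. The cardiomyocyte genes Myh6 and Myl2 were among the abundant transcripts. The atrial gene Sln was at 0 in 6 of the 8 libraries and at 0.163 and 0.266 normalized CPM in TK-/- tagged replicates 1 and 2. Another atrial gene, Myl7, was low but present in all 8 libraries. It lay between 0.237 (TK-/- tagged replicate 3) and 1.23 normalized CPM (control-tagged replicate 2).

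The first question was whether the interferon and antigen presentation genes differed between the groups of LVs. None of the 43 genes was called at an FDR under 0.1 with a change of at least 1.5-fold in either direction by edgeR's quasi-likelihood test. Of all genes tested, 1 gene, or 0.00738%, was called, and this gene was Flt1. The count among the 43 genes was 0 by the likelihood ratio test and by DESeq2 as well. An unadjusted p under 0.05 was found for 4 of the 43 genes (9.3%), against 8.96% of all genes, so this share was close to that of the whole table. Of these 4, Bst2, Trim25 and Irf9 were at lower values in the TK-/- tagged libraries and Iigp1 at higher values, where 5.64% of all genes were lower and 3.32% higher with such a p. The lowest FDR of the 43 genes was 0.464 (Bst2). The groups did not overlap in 1 of the 43 genes, Trim25, against 4.98% of all genes tested. The fitted log2 fold changes lay between -0.48 (Bst2) and 0.65 (Iigp1). They were negative in 29 of 43 genes (67.4%), against 50.3% of all genes, with a median of -0.10 against 0 over all genes. This balance changed with the library left out. The number of genes with a negative value was 18 without control-tagged replicate 2 and 21 without TK-/- tagged replicate 2. It was 38 without TK-/- tagged replicate 1 and 24 to 32 without each of the other libraries. Without both control-tagged replicate 2 and TK-/- tagged replicate 1 it was 31, with a median of -0.15. The median over the 43 genes was 0.04 without control-tagged replicate 2 and 0.02 without TK-/- tagged replicate 2. It was -0.29 without TK-/- tagged replicate 1, and -0.01 and -0.04 without TK-/- tagged replicates 3 and 4. Without control-tagged replicates 1, 3 and 4 it was -0.12, -0.10 and -0.18.

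**Figure D1:**
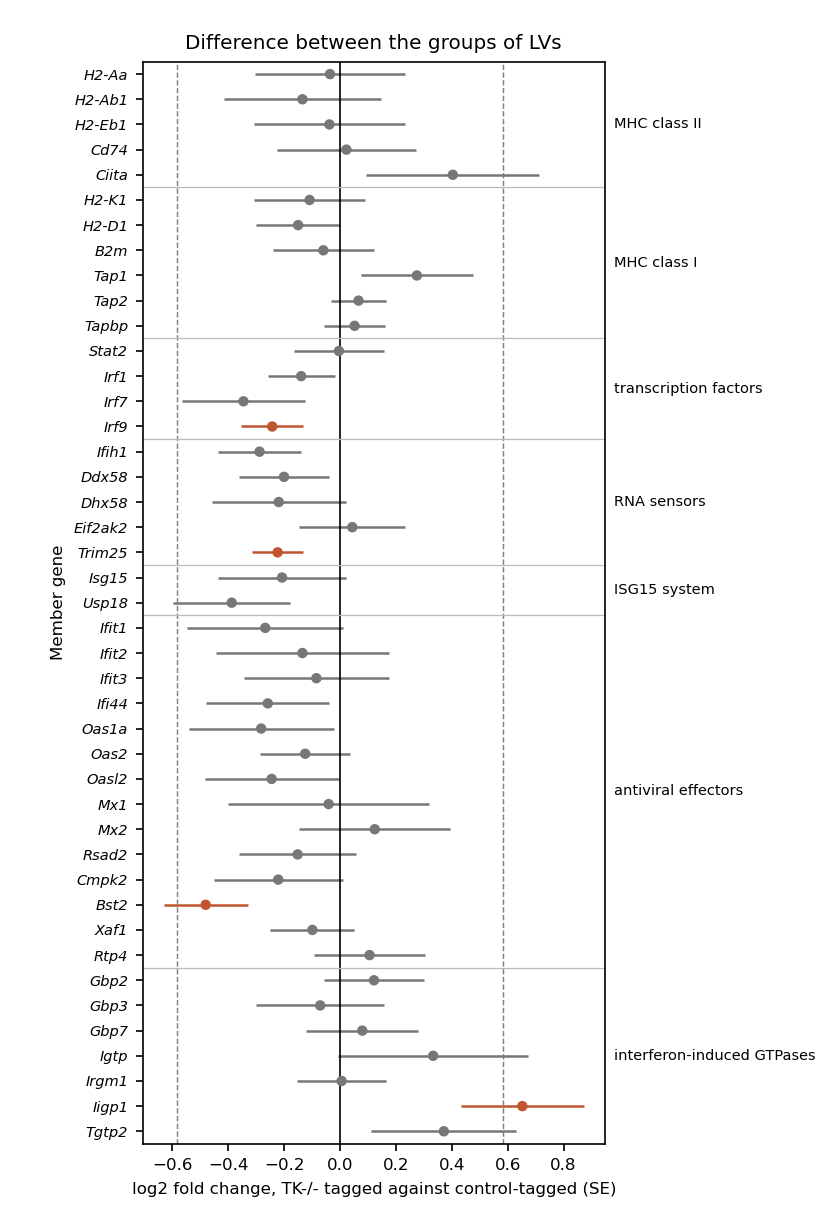
Log2 fold change of each of the 43 genes between the TK-/- tagged and the control-tagged libraries (points) with its standard error from the edgeR fit (lines), ordered by role. Orange marks the 4 genes with an unadjusted p under 0.05, and dashed lines mark a change of 1.5-fold, which Iigp1 alone passed, at 0.65 with an FDR of 0.468.

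The genes differed more between LVs of one group than most genes did. The median standard deviation within groups, on the scale of log2 normalized CPM, was 0.36 over the 43 genes and 0.21 over all genes tested. Of the 43 genes, 37 were above the median of all genes. Igtp, an immunity-related GTPase, had the highest value at 0.63, higher than 96.8% of all genes, followed by the antiviral gene Ifit2 (0.57) and the class II gene H2-Ab1 (0.54). Trim25, a ubiquitin ligase that activates the RNA sensor RIG-I, was at the other end with 0.088.

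A pair of libraries, 1 of each group, held most of the highest values. Control-tagged replicate 2 was the highest of the 8 libraries in 19 of the 43 genes, and TK-/- tagged replicate 1 in 20. These libraries were the highest in 19.5% and 9.92% of all genes tested. Together they held the highest value in 39 of 43 genes (90.7%), against 29.4% of all genes. The exceptions, named after their values were seen, were Irf1 and Trim25, highest in control-tagged replicate 3, Bst2 in control-tagged replicate 1 and Tgtp2 in TK-/- tagged replicate 3. No gene of the 43 was lowest in either of these libraries or in control-tagged replicate 1. TK-/- tagged replicates 2 and 3 were each the lowest in 10 genes, where they were lowest in 14.6% and 13.6% of all genes. TK-/- tagged replicate 4 and control-tagged replicate 4 were each the lowest in 8 genes, against 6.66% and 9.2% of all genes, and control-tagged replicate 3 in 7, against 23.2%.

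The genes fell apart by role between these LVs. Control-tagged replicate 2 was the highest library in 3 of 4 transcription factors, 4 of 5 RNA sensors, both genes of the ISG15 system and 10 of 14 antiviral effectors. TK-/- tagged replicate 1 was the highest in all 5 MHC class II genes, all 6 MHC class I genes, 6 of 7 interferon-induced GTPases and 3 antiviral effectors (Mx1, Mx2 and Rtp4). As the median difference from the mean of the 8 libraries on the log2 scale, control-tagged replicate 2 was at 0.69 in the antiviral effectors, at -0.10 in MHC class II and at 0.13 in the GTPases. TK-/- tagged replicate 1 was at 0.37, 0.71 and 0.57 in the same roles. TK-/- tagged replicate 2 was the lowest library for MHC class II (-0.70) and was at 0 for the antiviral effectors, for which TK-/- tagged replicate 3 was the lowest (-0.38).

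**Figure D2:**
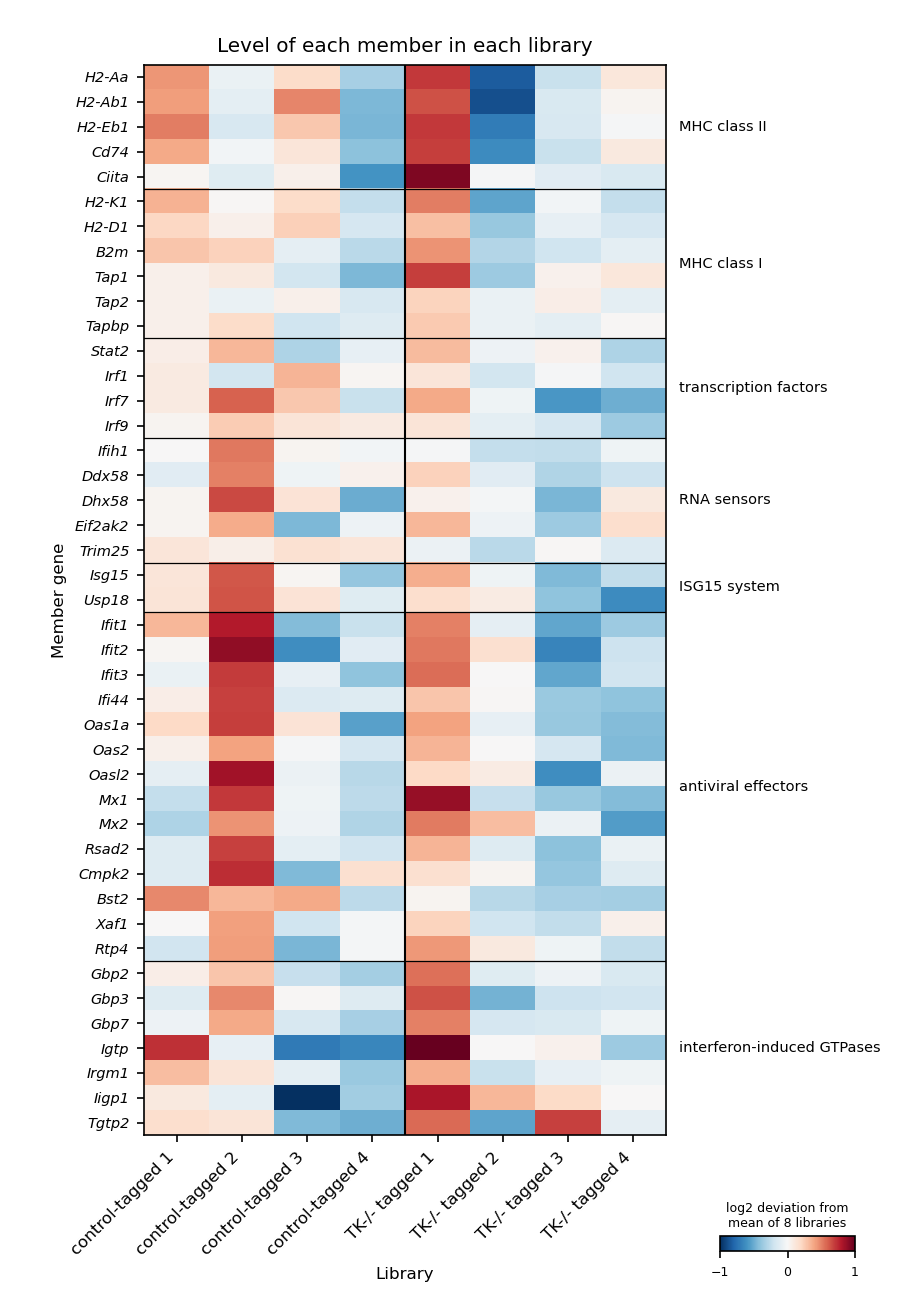
Level of each of the 43 genes in each of the 8 libraries, as log2 normalized CPM minus the mean of the 8 libraries (color scale cut at -1 and 1), with genes ordered by role. The column of control-tagged replicate 2 is red in the antiviral effectors and pale in MHC class II, and that of TK-/- tagged replicate 1 is red in nearly all roles.

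Markers of other cells differed between the same libraries. The sum of 12 leukocyte and macrophage markers was 534 to 680 normalized CPM in the control-tagged and 365 to 543 in the TK-/- tagged libraries. Control-tagged replicate 2 had the highest sum (680) and TK-/- tagged replicate 3 the lowest (365), the latter being the lowest library in 9 of the 12 markers. In the comparison of the groups, 11 of the 12 markers had a negative log2 fold change, against 50.3% of all genes, and 3 of them an unadjusted p under 0.05 (Csf1r, Itgam and Cd163), where 5.64% of all genes were lower with such a p. The FDR of each of the 12 was above 0.1 in edgeR's quasi-likelihood test. All 5 cardiomyocyte markers were lowest in control-tagged replicate 2, with a sum of 43500 normalized CPM against 55900 to 75500 in the other libraries. The same library had the highest sums of 4 endothelial, 3 fibroblast and 3 red blood cell markers. Of the 5 cardiomyocyte markers, 4 had a positive log2 fold change. Tnni3 was higher in the TK-/- tagged libraries (edgeR, unadjusted p = 0.0443, FDR = 0.551), where 3.32% of all genes were higher with a p under 0.05. The endothelial sum was 850 to 1120 normalized CPM in the control-tagged and 800 to 907 in the TK-/- tagged libraries. Of the 4 endothelial markers, 3 had a negative log2 fold change, against 50.3% of all genes. The unadjusted p in edgeR was under 0.05 in Cdh5 (FDR = 0.464) and Pecam1 (FDR = 0.521), where 5.64% of all genes were lower with such a p. The sums of fibroblast markers were 689 to 1020 and 411 to 877, and those of red blood cell markers 262 to 661 and 315 to 510. The sum of 5 T and NK cell markers was 3.92 to 5.99 in the control-tagged and 3.40 to 9.83 in the TK-/- tagged libraries, and all 4 of these markers that passed the filter were highest in TK-/- tagged replicate 1. The sum of 4 dendritic cell markers was 2.69 to 5.69 and 2.49 to 7.56, also highest in TK-/- tagged replicate 1. That of 4 B cell markers was 4.88 to 7.60 and 3.82 to 5.86, lowest in the same library. The sum of 3 neutrophil markers was 3.5 to 5.52 and 2.03 to 8.08. Of these, S100a8 and S100a9 were present in all 8 libraries, highest in TK-/- tagged replicate 2 and lowest in TK-/- tagged replicate 1, while the defining marker Ly6g was at 0 in 7 libraries. The adipocyte gene Plin1 was at 0 in all 8, and Adipoq was at no more than 0.145 normalized CPM. In a bulk sample, fewer cells of a type and less RNA per cell cannot be told apart, and the part of these markers in the values of the 43 genes was not tested.

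**Figure D3:**
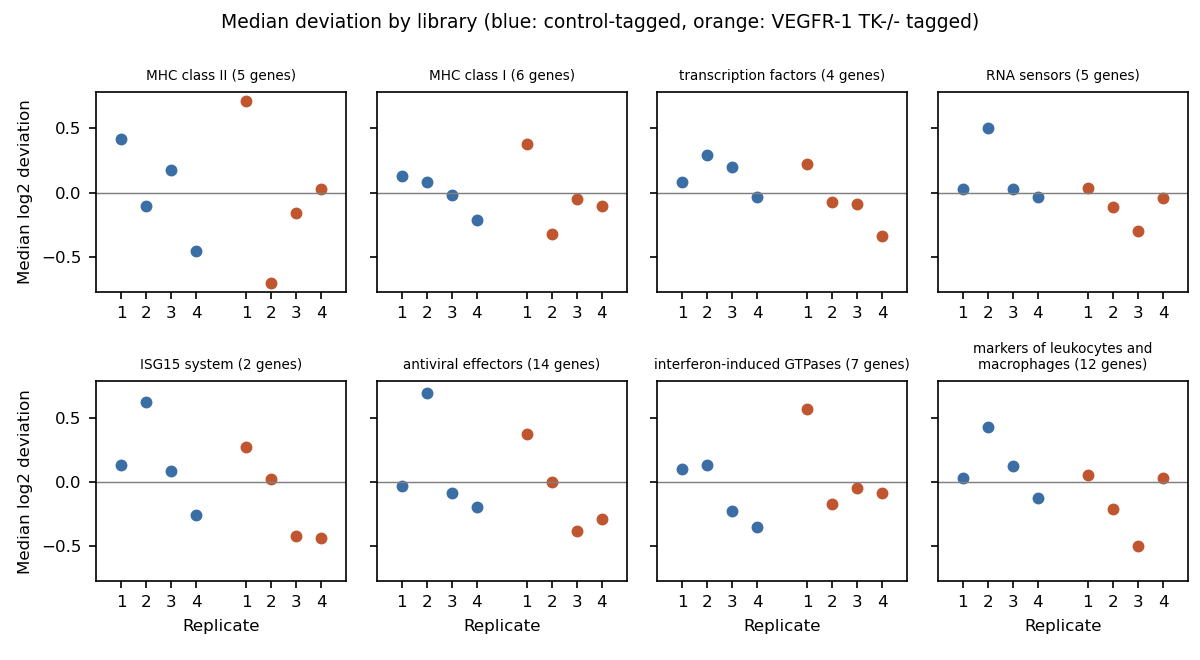
Median over the genes of each role, and over 12 markers of leukocytes and macrophages, of log2 normalized CPM minus the mean of the 8 libraries (y axis), by replicate and group. Each point is 1 library, and control-tagged replicate 2 stands at 0.69 for the antiviral effectors and at 0.43 for the leukocyte markers.

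The promoters were read from the RefSeq table of build GRCm38.p6, which gives 250 bases before and 50 bases after the annotated start. It held 32 of the 43 genes, the first entry being used for the 5 with several, and 27025 promoters in all. An ISRE core (GAAA, any 2 bases, GAAA, on either strand, overlaps allowed) was present in 17 of the 32 windows (53.1%), against 3.49% of all promoters. A GAS (TTC, any 3 bases, GAA) was present in 8 of 32 (25%), against 8.47%. A CCAAT box, the site of the factor NF-Y that takes part in class II transcription, was found in 14 of 32 (43.8%), against 37.9%. An ISRE core was present in 5 of 10 antiviral effector, 3 of 4 RNA sensor and 1 of 4 transcription factor windows. The 1 window of the ISG15 system held it as well. All 6 GTPase windows held an ISRE core and 3 of them a GAS, whereas 0 of 2 class II and 1 of 5 class I windows held an ISRE core. Both class II and all 5 class I windows held a CCAAT box. A CCAAT box was in 2 of the 6 GTPase windows as well. The class II and GTPase windows differed in the ISRE core, but only 2 of the 5 class II genes had a window. A match describes the window and not a bound site.

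The following stretches before the start show how the motifs are arranged in antiviral genes, GTPases and class II genes. They are written 5′ to 3′ on the strand of the gene, with the matched letters of ISRE core, GAS or CCAAT box in capitals and the build GRCm38.p6. Isg15, Rsad2 and Bst2 are from the ISG15 system and the antiviral effectors, Igtp, Tgtp2, Irgm1 and Gbp2 from the GTPases, and H2-Aa and H2-Eb1 from MHC class II. Each of them holds a match, so they do not represent windows without one.
Isg15 (chr4:156200850-156200921, minus strand): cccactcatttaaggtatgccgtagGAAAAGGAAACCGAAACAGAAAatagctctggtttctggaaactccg
Rsad2 (chr12:26456538-26456597, minus strand): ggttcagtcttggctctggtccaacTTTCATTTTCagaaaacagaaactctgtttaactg
Bst2 (chr8:71537562-71537633, minus strand): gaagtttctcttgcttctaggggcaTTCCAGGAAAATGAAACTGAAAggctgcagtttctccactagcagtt
Igtp (chr11:58199486-58199555, plus strand): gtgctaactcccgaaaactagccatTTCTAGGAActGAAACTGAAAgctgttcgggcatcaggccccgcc
Tgtp2 (chr11:49064248-49064318, minus strand): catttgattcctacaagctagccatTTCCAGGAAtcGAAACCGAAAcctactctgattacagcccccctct
Irgm1 (chr11:48871421-48871475, minus strand): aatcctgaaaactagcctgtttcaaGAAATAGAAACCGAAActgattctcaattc
Gbp2 (chr3:142620579-142620638, plus strand): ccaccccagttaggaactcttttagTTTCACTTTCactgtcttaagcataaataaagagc
H2-Aa (chr17:34287842-34287896, minus strand): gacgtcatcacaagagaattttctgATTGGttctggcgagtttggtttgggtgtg
H2-Eb1 (chr17:34305783-34305861, plus strand): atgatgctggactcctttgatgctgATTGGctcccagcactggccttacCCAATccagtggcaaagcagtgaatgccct

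Isg15 carried 3 overlapping ISRE cores, whose first bases lie at -78, -72 and -66 from the start. In Bst2, a GAS at -136 ran into 2 overlapping ISRE cores at -130 and -124. Igtp and Tgtp2 shared one arrangement, a GAS followed after 2 bases by an ISRE core. Their GAS began at -45 and -81 and their ISRE cores at -34 and -70, respectively. Irf7, Irf9, Trim25, Ifi44, Oasl2, Cmpk2 and Xaf1 had none of the 3 motifs in the window, which says only that these letters are not within it.

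**Figure D4:**
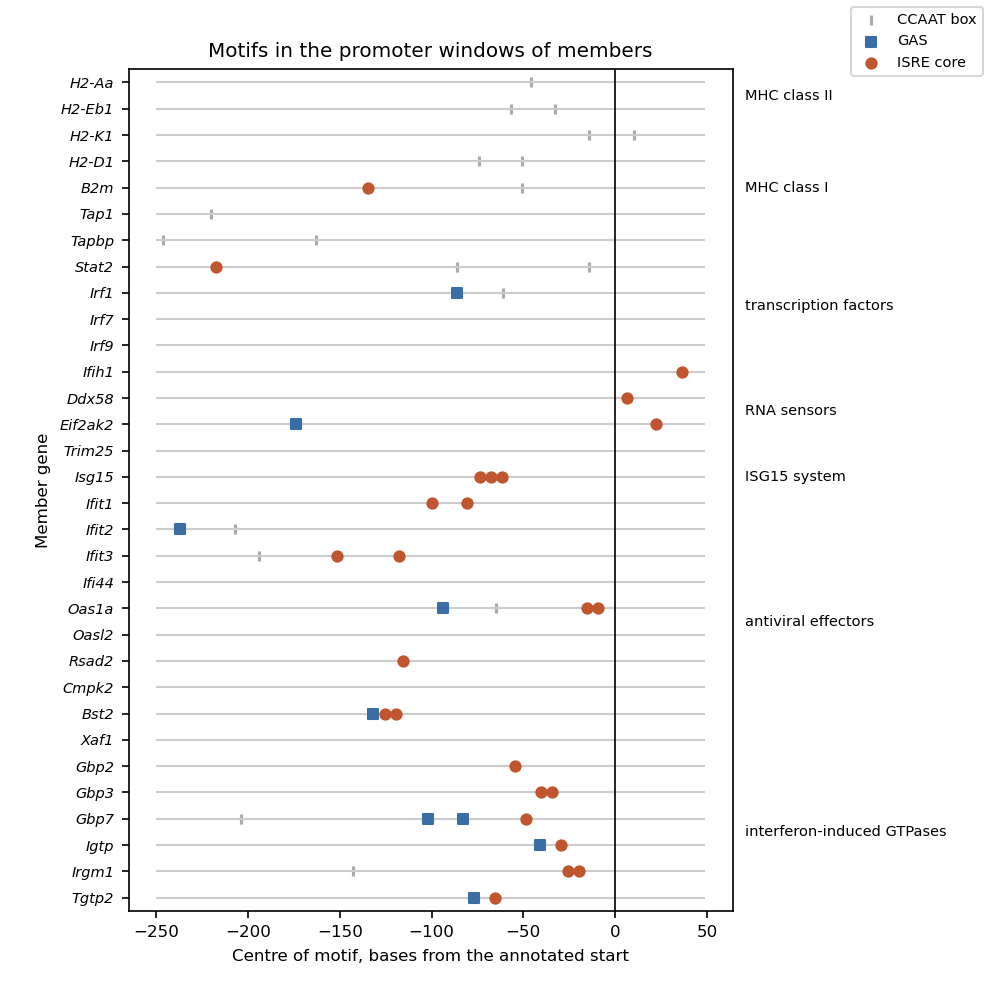
Centre of each match of the ISRE core (circles), GAS (squares) and CCAAT box (ticks) in the promoter windows of 32 genes, in bases from the annotated start at 0. All 6 interferon-induced GTPases and 1 of 7 MHC genes have an ISRE core in the window.

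MHC class II was represented by H2-Aa, H2-Ab1 and H2-Eb1, the chains of the class II molecules, by the invariant chain Cd74, which guides them through the cell, and by Ciita, the master regulator of their transcription. H2-Aa, H2-Ab1, H2-Eb1 and the peptide transporters Tap1 and Tap2 lie within 129 kb on chromosome 17 (34187553 to 34316674, GRCm38). Per length, Cd74 was the most abundant of the 5 with a mean of 534 TPM (a level corrected for transcript length), and Ciita was the least abundant of all 43 genes with 0.718 TPM. Cd74 was at 369, 277, 307 and 213 normalized CPM in the control-tagged and at 456, 182, 243 and 302 in the TK-/- tagged libraries. The TK-/- tagged group held both the highest and the lowest library, so the groups overlapped fully. The means were 291 ± 64.6 and 296 ± 118 (SD, n = 4 per group), with log2 fold change 0.02 (SE 0.25, quasi-likelihood FDR = 0.986 in edgeR). H2-Aa, H2-Ab1 and H2-Eb1 showed the same extremes as Cd74, with TK-/- tagged replicate 1 highest and TK-/- tagged replicate 2 lowest, and differed by 2.5-fold (Cd74) to 2.90-fold (H2-Aa) between these libraries of one group. Their log2 fold changes were -0.04 (H2-Aa), -0.13 (H2-Ab1) and -0.04 (H2-Eb1). Ciita was at 2.17, 1.96, 2.22 and 1.36 normalized CPM in the control-tagged and at 4.23, 2.13, 1.98 and 1.91 in the TK-/- tagged libraries. TK-/- tagged replicate 1 stood apart from the other 7 libraries. The log2 fold change was 0.40 (SE 0.31, quasi-likelihood FDR = 0.725 in edgeR), and it was 0.05 without this library. Ciita, with 17 to 52 reads per library, shares 329 exon bases with Dexi on the opposite strand. Dexi had 455 to 676 reads, and whether the counting used strand is not stated. The median log2 fold change of the 5 genes was -0.04, 0.17 without TK-/- tagged replicate 2 and -0.35 without TK-/- tagged replicate 1.

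MHC class I comprised the heavy chains H2-K1 and H2-D1, their light chain B2m, the peptide transporter Tap1 and Tap2 and the loading factor Tapbp. B2m was the most abundant of the 43 genes per length, with a mean of 1580 TPM, followed by H2-D1 (557 TPM). It was at 528, 511, 409 and 360 normalized CPM in the control-tagged and at 595, 356, 379 and 405 in the TK-/- tagged libraries. The groups overlapped, and the TK-/- tagged group held both the highest and the lowest library. The means were 452 ± 80.7 and 434 ± 109 (SD, n = 4 per group), with log2 fold change -0.06 (SE 0.18, quasi-likelihood FDR = 0.943 in edgeR). Tap1 was at 25.3, 26.3, 21.7 and 17.8 normalized CPM in the control-tagged and at 39.6, 19.1, 25.1 and 26.5 in the TK-/- tagged libraries. Again TK-/- tagged replicate 1 was high and the other libraries overlapped. The log2 fold change was 0.27 (SE 0.20, FDR = 0.715), the largest in size of the 6 genes, and it was 0.05 without TK-/- tagged replicate 1. The 6 genes were split into 3 negative and 3 positive values with a median of 0. Tap1 shares 212 exon bases with Psmb9 on the opposite strand, and whether the counting used strand is not stated.

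The transcription factors were Stat2 and Irf9 of the type I complex, Irf1, an early interferon target, and Irf7, which amplifies type I interferon transcription. Irf7 had the highest level per length of the 4 (36.4 TPM). It was at 46.0, 65.3, 52.0 and 37.1 normalized CPM in the control-tagged and at 56.3, 42.0, 28.8 and 30.7 in the TK-/- tagged libraries. TK-/- tagged replicates 3 and 4 were below every control-tagged library, and replicate 1 was above all but one of them. The log2 fold change was -0.35 (SE 0.22, quasi-likelihood FDR = 0.666 in edgeR). It was -0.19 without control-tagged replicate 2 and -0.57 without TK-/- tagged replicate 1. Irf9 was at 36.6, 42.4, 39.1 and 38 normalized CPM in the control-tagged and at 39.0, 33.4, 31.8 and 27.8 in the TK-/- tagged libraries. Of the TK-/- tagged libraries, 3 were below every control-tagged library, and replicate 1 was within their range. The means were 39.0 ± 2.47 and 33.0 ± 4.64 (SD, n = 4 per group), with log2 fold change -0.24 (SE 0.11, unadjusted p = 0.0487 and quasi-likelihood FDR = 0.556 in edgeR; 2-sided exact permutation test, p = 0.0857). Stat2 and Irf1 were at 0 and -0.14. Irf9 shares 123 exon bases with Rnf31 on the same strand.

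The role named RNA sensors held Ddx58 (RIG-I), Ifih1 (MDA5) and Dhx58 (LGP2), which detect viral RNA, and the kinase Eif2ak2 (PKR). It also held the ubiquitin ligase Trim25, which activates RIG-I. Trim25 (ENSMUSG00000000275, chromosome 11, 88999376 to 89020293, GRCm38) was at 84.1, 80.7, 85.6 and 83.8 normalized CPM in the control-tagged and at 73.9, 64.2, 78.0 and 70.1 in the TK-/- tagged libraries. Every control-tagged library was above every TK-/- tagged library, and the control-tagged values lay close together. The means were 83.5 ± 2.05 and 71.5 ± 5.86 (SD, n = 4 per group), with log2 fold change -0.22 (SE 0.09, unadjusted p = 0.0238 and quasi-likelihood FDR = 0.506 in edgeR). The 2-sided exact permutation test gave p = 0.0286, the smallest value that 4 libraries against 4 allow. Groups that do not overlap always reach this value, so it restates the separation. Over 17 alternatives the log2 fold change stayed between -0.27 and -0.18, and the FDR between 0.372 and 0.941. The other 4 genes of the role had log2 fold changes from -0.29 (Ifih1) to 0.04 (Eif2ak2), all of them highest in control-tagged replicate 2. The median of the 5 genes was -0.22, with a range of -0.26 to -0.05 when each library was left out.

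The ISG15 system consisted of Isg15, a ubiquitin-like modifier, and Usp18, the protease that removes it and restrains interferon signaling. Isg15 was at 8.38, 11.9, 7.80 and 5.84 normalized CPM in the control-tagged and at 9.91, 7.46, 5.61 and 6.46 in the TK-/- tagged libraries. The groups overlapped in most libraries. The log2 fold change was -0.21 (SE 0.23, quasi-likelihood FDR = 0.821 in edgeR), and it was 0 without control-tagged replicate 2. Usp18 was at 8.98, 12.8, 9.08 and 7.52 normalized CPM in the control-tagged and at 9.26, 8.70, 6.16 and 5.26 in the TK-/- tagged libraries. TK-/- tagged replicates 3 and 4 were the lowest of all 8. The log2 fold change was -0.39 (SE 0.21, FDR = 0.618). It was -0.22 without control-tagged replicate 2 and -0.26 without TK-/- tagged replicate 4.

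The 14 antiviral effectors are induced by interferons, and most of them block steps of viral replication. Among them were the RNA-binding Ifit proteins, the RNA-activated synthetases Oas1a and Oas2, the dynamin-like GTPases Mx1 and Mx2, Rsad2 (viperin) and Bst2 (tetherin), which holds budding virions at the cell surface. Ifit1, Ifit2 and Ifit3 lie within 99.3 kb on chromosome 19 (34550694 to 34650009) and Rsad2 and Cmpk2 within 37.1 kb on chromosome 12 (26442746 to 26479837). Of the 14 genes, 12 had a negative log2 fold change, with a median of -0.14. Without control-tagged replicate 2 the median was 0.06, and without TK-/- tagged replicate 1 it was -0.34. Bst2 (ENSMUSG00000046718, chromosome 8, 71534255 to 71537456) was the most abundant of them per length (155 TPM). It was at 62.4, 56.1, 58.2 and 37.2 normalized CPM in the control-tagged and at 45.6, 36.8, 35.6 and 35.4 in the TK-/- tagged libraries. Of the control-tagged libraries, 3 were above all TK-/- tagged libraries, and replicate 4 was among them. The means were 53.5 ± 11.2 and 38.3 ± 4.88 (SD, n = 4 per group), with log2 fold change -0.48 (SE 0.15, unadjusted p = 0.0087 and quasi-likelihood FDR = 0.464 in edgeR; 2-sided exact permutation test, p = 0.0571). Over 17 alternatives the log2 fold change lay between -0.62 and -0.40, and the lowest FDR was 0.224, by the likelihood ratio test. The other 13 effectors lay between -0.28 (Oas1a) and 0.12 (Mx2), none with an unadjusted p under 0.05. Ifit2 ranged from 10.7 to 31.7 normalized CPM over the 8 libraries and Mx1 from 1.75 to 4.55. Paralogs with near-identical stretches were also summed. Ifit3 and Ifit3b together had means of 26.3 ± 8.87 and 25.2 ± 8.89 normalized CPM (SD, n = 4 per group; exact permutation test, p = 0.83), and Oas1a and Oas1g at 10.5 ± 3.61 and 8.31 ± 2.38 (SD, n = 4 per group; exact permutation test, p = 0.40).

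The interferon-induced GTPases include proteins that attack the vacuoles of intracellular pathogens. The genes listed here were the guanylate-binding proteins Gbp2, Gbp3 and Gbp7 and the immunity-related GTPases Igtp, Irgm1, Iigp1 and Tgtp2. Gbp2, Gbp3 and Gbp7 lie within 108 kb on chromosome 3 (142530342 to 142638008). Of the 7 genes, 6 had a positive log2 fold change, where 29 of the 43 genes were negative. The median was 0.12, and it was -0.07 without TK-/- tagged replicate 1. Igtp had the highest level per length (49.2 TPM). It was at 49.6, 28.3, 18.2 and 19.0 normalized CPM in the control-tagged and at 60.9, 29.9, 30.7 and 23.3 in the TK-/- tagged libraries. Replicate 1 was the highest library of each group. The log2 fold change was 0.33 (SE 0.34, quasi-likelihood FDR = 0.802 in edgeR). It was -0.04 without TK-/- tagged replicate 1 and 0.73 without control-tagged replicate 1. Igtp shares 162 exon bases with Irgm2 on the same strand. Iigp1 was at 48.0, 41.7, 22.2 and 35.1 normalized CPM in the control-tagged and at 79.1, 56.3, 51.0 and 44.6 in the TK-/- tagged libraries. Of the TK-/- tagged libraries, 3 were above all control-tagged libraries, and replicate 4 was within their range. The means were 36.8 ± 11 and 57.7 ± 15.1 (SD, n = 4 per group), with log2 fold change 0.65 (SE 0.22, unadjusted p = 0.0136 and quasi-likelihood FDR = 0.468 in edgeR; 2-sided exact permutation test, p = 0.0571). It stayed between 0.46 and 0.80 over 17 alternatives, with FDRs of 0.231 to 0.941. Tgtp2 and its near-identical paralog Tgtp1 together had means of 15.8 ± 3.74 and 21.1 ± 7.28 normalized CPM (SD, n = 4 per group; exact permutation test, p = 0.40).

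**Figure D5:**
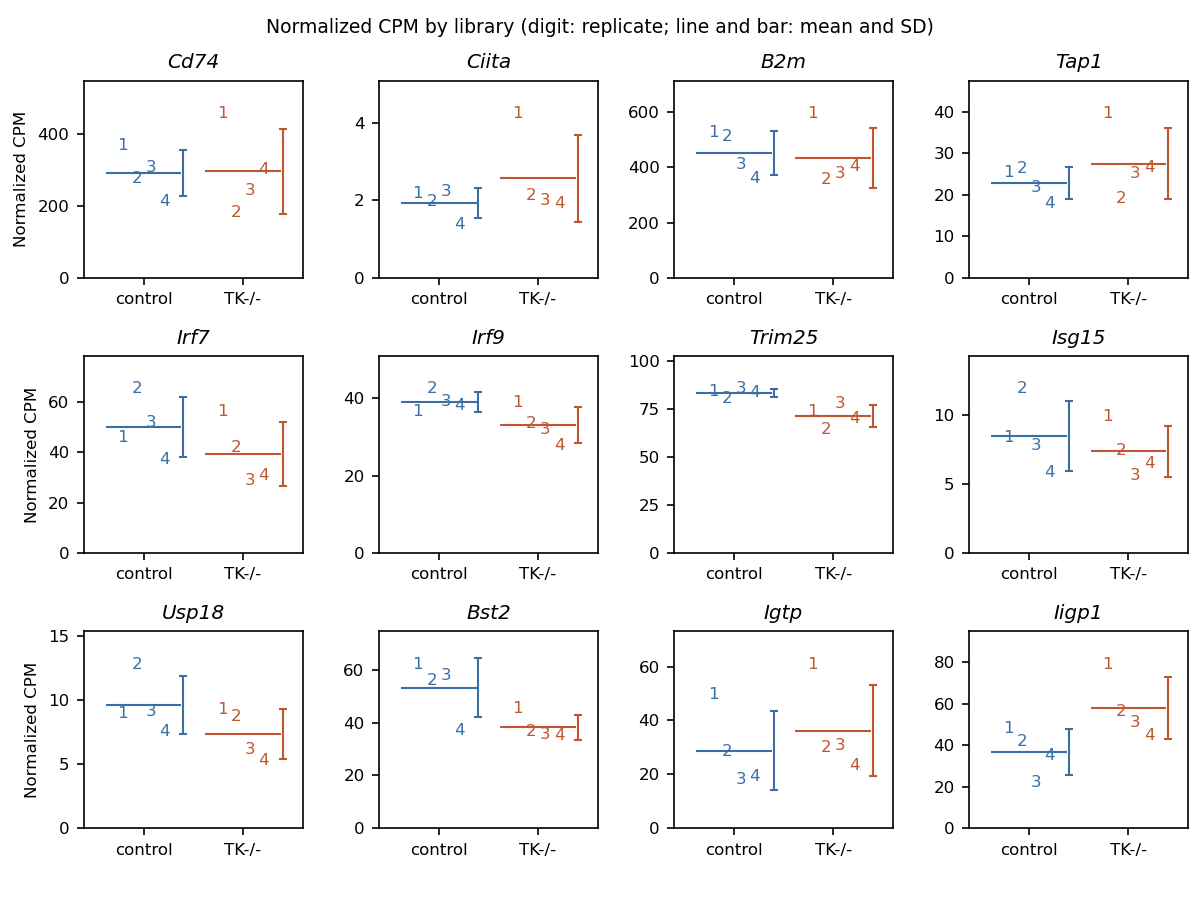
Normalized CPM (y axis from 0) of 12 of the 43 genes, with digits for the replicate number, lines for the group mean and bars for the SD. The groups do not overlap in Trim25 (80.7 to 85.6 against 64.2 to 78.0) and overlap in the other 11 genes.

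A wider list of 90 genes of the pathway, of which 86 were tested, was read in the same way. Negative log2 fold changes were found in 60 of the 86 genes (69.8%), against 50.3% of all genes, with a median of -0.07. An unadjusted p under 0.05 was found for 5 genes (5.81%), against 8.96% of all genes. All 5 were at lower values in the TK-/- tagged libraries, close to the 5.64% of all genes that were lower with such a p. None had an FDR under 0.1 by edgeR's quasi-likelihood test. The 5 genes were Tmem173 (STING, the adaptor of DNA sensing, log2 fold change -0.55), Ifitm1, Ifitm2 and Ifitm3 (membrane proteins that block viral entry, -0.57, -0.37 and -0.54) and the galectin Lgals9 (-0.35). Ifitm1 was at 4.94, 4.94, 6.99 and 5.20 normalized CPM in the control-tagged and at 3.33, 2.31, 4.74 and 4.46 in the TK-/- tagged libraries. The groups did not overlap (SE 0.23, quasi-likelihood FDR = 0.521 in edgeR; 2-sided exact permutation test, p = 0.0286, the value that any such separation gives). This held for 1 of the 86 genes, against 4.98% of all genes tested. Tmem173 was at 20.3, 22, 16.1 and 12.6 normalized CPM in the control-tagged and at 14.5, 12.7, 9.40 and 11.8 in the TK-/- tagged libraries. Control-tagged replicate 4 lay within the TK-/- tagged range. Ifitm2 was at 115, 128, 155 and 120 normalized CPM against 103, 78.6, 103 and 118, and Ifitm3 at 187, 203, 317 and 147 against 158, 133, 155 and 142. The groups of Ifitm2 overlapped in TK-/- tagged replicate 4 and control-tagged replicate 1, and those of Ifitm3 in control-tagged replicate 4. Lgals9 was at 54.4, 81.0, 70.9 and 49.2 normalized CPM against 54.2, 44.3, 47.5 and 55.1, with control-tagged replicates 1 and 4 within the TK-/- tagged range. The receptors of type I and type II interferon were expressed, Ifnar1 at 30.3 to 32.1 and Ifngr1 at 86.9 to 98.6 normalized CPM as group means. Their log2 fold changes were -0.08 (Ifnar1), -0.14 (Ifnar2), -0.18 (Ifngr1) and 0.17 (Ifngr2), with unadjusted p from 0.17 to 0.52 in the edgeR fit. The ligand genes were near or at the limit of detection. Ifnb1 had no read in any library, and Ifng lay between 0 and 0.163 normalized CPM. As in the 43 genes, control-tagged replicate 2 and TK-/- tagged replicate 1 were the highest library in 31 genes each, 62 of 86 (72.1%), against 29.4% of all genes. The class II processing genes were lowest in TK-/- tagged replicate 2 in 6 of 8 tested genes, against 14.6% of all genes. This replicate was also lowest for the class II chains. The highest values of the processing genes were spread over more libraries. Control-tagged replicate 1 was highest in 3 genes and control-tagged replicate 2 in 2. Control-tagged replicate 3 and TK-/- tagged replicates 1 and 4 were highest in 1 each.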

How the data were processed

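RNA was sequenced from LVs of 8 angII-infused mice, with 4 libraries per group. Per the labels and the methods of the study, the authors trimmed reads with Trim Galore 0.4.4, aligned them to GRCm38 with STAR 2.5.4b and deposited raw counts per gene made with featureCounts on GENCODE M16. Strand and reads with several alignments are not stated for the counting, so antisense genes and paralogs may share reads.

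Genes that reached 1 CPM in 2 or more libraries were normalized (TMM) and tested with edgeR 4.0.16 (quasi-likelihood F test, Benjamini-Hochberg FDR over 13542 genes, R 4.3.3). The study used the likelihood ratio test. Normalized CPM is relative to TMM-adjusted library sizes, and log2 values carry a prior count of 2. TPM used GENCODE M21 exon lengths. Promoters came from RefSeq. Single genes were compared with an exact permutation test over libraries (smallest p 0.0286). The p-values set the difference between the groups against the spread between these libraries. The test was checked on simulated counts.

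The 43 genes and the lists were chosen with earlier results of these data known. Genes given by library are, per role, the one with the highest TPM and the one with the lowest p, and any without overlap of the groups, and of the wider list those with an unadjusted p under 0.05. Others, such as the interferon receptors and Ifit2, were named after their values were seen. At the depth of 11449137 to 16239670 counts, a CPM of 1 is 11 to 16 reads. As alternatives, DESeq2 1.42.0, the likelihood ratio test, RLE and total-count scaling, no filter, filterByExpr, robust dispersion, a replicate block, other thresholds and each library left out were run. Control-tagged replicate 2 and TK-/- tagged replicate 1 were left out together as an alternative added after the data were seen.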

Additional observations from a re-analysis of the deposited data

Results flagged for a closer look

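In 6 of 86 sets of 4 libraries (43 genes in 2 groups), 1 library lay farther from the others than Dixon's 95% limit for 4 samples allows. Chance gives about 1 in 20 such sets. All 6 concern the libraries that hold most of the highest values. Those libraries were singled out from the same 43 genes, so this is no separate support. The sets share the same libraries and are not independent. Control-tagged replicate 2 stood apart for the RNA sensor Ifih1, with 19.5 normalized CPM against 13.2 to 13.7 in the other control-tagged libraries, and for the antiviral gene Rsad2, with 62.9 against 34.5 to 36.5. TK-/- tagged replicate 1 stood apart for Ciita (4.23 normalized CPM against 1.91 to 2.13 in the other TK-/- tagged libraries), Mx1 (4.55 against 1.75 to 2.04), Bst2 (45.6 against 35.4 to 36.8) and Gbp2 (39.5 against 24.3 to 26.1). Control-tagged replicate 2 also had the highest sum of leukocyte and macrophage markers (680 normalized CPM), of endothelial (1120), fibroblast (1020) and red blood cell markers (661) and the lowest of cardiomyocyte markers (43500). TK-/- tagged replicate 1 had the highest sums of T and NK cell (9.83) and dendritic cell markers (7.56). It had the lowest of B cell (3.82) and neutrophil markers (2.03). These sums of TK-/- tagged replicate 1 rest on genes with few reads, such as Cd3e with 3 to 20 per library. The part of these markers in the values was not tested.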

How the results depend on the processing

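None of the 43 genes was called under any of 17 alternatives or 2 other thresholds (leave-one-out 0 to 0). The number with an unadjusted p under 0.05 was 4 in edgeR's quasi-likelihood test over all libraries. It was 2 to 5 when each library was left out, against 5.25% to 10.1% of all genes in these fits. The 2 without TK-/- tagged replicate 4 were Bst2 and Iigp1. With the replicate number as a block (replicate block) the number was 7 (Bst2, Igtp, Iigp1, Irf7, Irf9, Trim25 and Usp18), against 9.19% of all genes. Without both control-tagged replicate 2 and TK-/- tagged replicate 1 it was 6 (Bst2, Iigp1, Irf1, Irf7, Irf9 and Trim25), against 6.65% of all genes. The numbers do not pair the mice by the labels, and same-numbered libraries correlated at -0.029, 0.029, 0.343 and -0.0555, so the block was used only as an alternative. For the 12 of the 43 genes given by library, 194 of 204 log2 fold changes kept their sign. The 10 that turned were those of Cd74 (-0.03 with the replicate block, -0.26 to 0.19 over libraries left out, -0.29 without both control-tagged replicate 2 and TK-/- tagged replicate 1), B2m (-0.25 to 0.02 over libraries left out) and Igtp (-0.04 to 0.73 over libraries left out, -0.05 without both). None of these had been called. The likelihood ratio test called 53, DESeq2 32 and the fit with no filter 23 of all genes, against 1, without any of the 43. Ciita and Mx1 rest on few reads, as do the T and NK cell markers, and 4 libraries per group limit all tests.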
